A study of Mus musculus with 8 samples.

Results

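The comparison of HU210 with DMSO after 2 h of treatment covers the earliest of 4 time points in N2A cells, a mouse neuroblastoma line that puts out neurites when its cannabinoid 1 receptor (CB1R) is stimulated. Its members are 2 of the 8 libraries of the series, the HU210 library and the DMSO library of 2 h, chosen by their labels. All cells were first starved for 16 h in MEM without serum, with 0.1% BSA, and then received HU210 at 2 µM, a potent agonist of CB1R, or the drug-free solvent DMSO, for 2, 4, 6 or 8 h. Each library is mRNA pooled from 2 to 3 independent experiments and sequenced as 1 sample, so no difference between HU210 and DMSO has a replicate check and no p-value is given. The cells are a tumor line, and the starvation is shared by both treatments.

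CB1R couples to the inhibitory G proteins Gi and Go. In N2A cells its signal passes through Rap and Ral GTPases and Src to Stat3, and CB1R can also activate the ERK kinases. ERK activity switches on immediate-early genes within minutes to hours without new protein synthesis. Among them are the zinc finger factors of the Egr family, the AP-1 factors Fos and Junb, and the neuronal gene Arc. Their mRNAs are short-lived, and products such as the Nab corepressors and the Dusp phosphatases act back on the pathway.

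Expression is in FPKM, a read count adjusted for transcript length and library size. Changes are differences of log2(FPKM + 1) between the HU210 and the DMSO library, a scale that makes changes look smaller at low FPKM, and every fold below is on this FPKM + 1 scale. The table lists 16980 genes, of which 16499 have values at 2 h and 15888 at all 4 time points. These 15888 genes are described here, since the DMSO libraries of 4 h, 6 h and 8 h show how far a gene moves among cells that never received the drug. The 4 DMSO libraries differ in time and are not replicates, so their range describes the spread among controls and gives no error. Each library had between 11328 and 11444 genes at 1 FPKM or more. Of 16 markers of sympathetic neuroblastoma, 15 had values and 14 had a mean FPKM of at least 1 over the 8 libraries. Among them, Phox2a had an FPKM of 46.4, Hand2 76.6 and Stmn2 129 in the HU210 library of 2 h. The 8 listed markers of fibroblasts, macrophages and epithelium lay between 0.0145 and 1.28 FPKM in the same library, with Dcn at 1.28 as the highest.

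Fewer genes separated HU210 from DMSO at 2 h than separated DMSO libraries of different times. At 1.5-fold, 104 genes were higher in the HU210 library (0.655% of the genes tested) and 212 were lower (1.33%). The DMSO library of 2 h differed by the same fold from that of 4 h at 575 genes (3.62%), from that of 6 h at 396 genes (2.49%) and from that of 8 h at 565 genes (3.56%). Of the genes past 1.5-fold at 2 h, 63 were also higher than in all 4 DMSO libraries (0.397%), and 124 were lower than in all 4 (0.78%). Another 37 higher and 80 lower genes were past 1.5-fold but inside the range of the DMSO libraries of 4 h, 6 h and 8 h. Among the 11306 genes with a mean FPKM of at least 1 over the 8 libraries, the log2 changes had an SD of 0.21 and a median of -0.051.

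**Figure D1:**
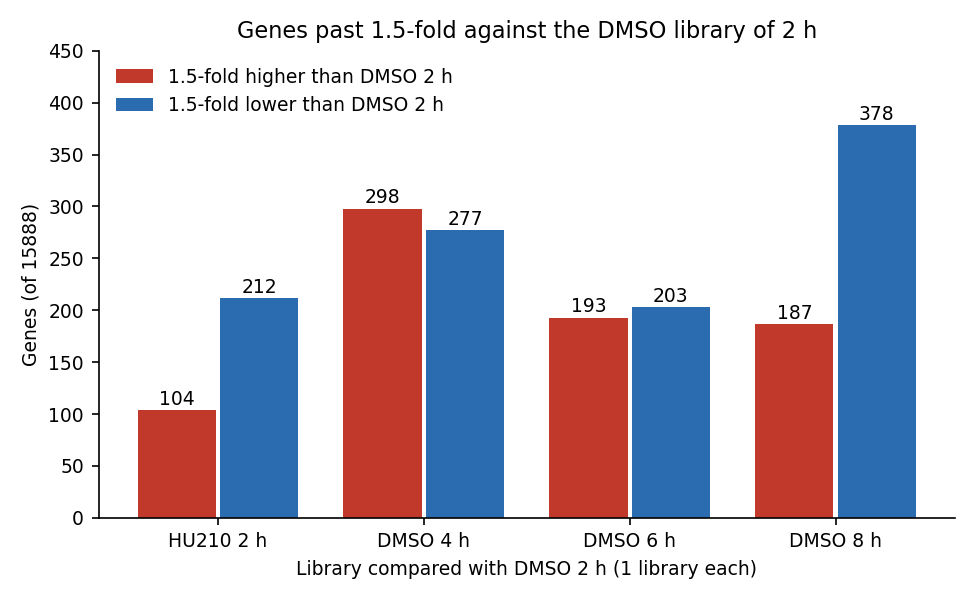
Number of genes (vertical axis) past 1.5-fold higher (red) or lower (blue) than the DMSO library of 2 h, for the HU210 library of 2 h and for the DMSO libraries of 4 h, 6 h and 8 h (horizontal axis, 1 library each). With 104 higher and 212 lower genes together, the HU210 library of 2 h has the fewest past the cutoff.

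The makeup of the 2 groups of genes differed. Of the 63 genes above all DMSO libraries, 24 code for small RNAs, none is a replication-dependent histone gene and 39 are other genes. Of the 124 genes below all DMSO libraries, 26 code for replication-dependent histones, 29 for small RNAs, 25 of them snoRNAs, and 69 are other genes, while 13 of the 124 are pseudogenes. When genes with a mean FPKM under 1 or transcripts under 300 bases are set aside, 25 higher and 81 lower genes remain. The HU210 value was a full 1.5-fold past the nearest DMSO library for 4 of these 25 and for 17 of these 81. The sorting into histone and small RNA genes was made after the values had been seen. The shares of small RNAs and of pseudogenes among all genes tested are not given here. Whether either class is over-represented in the 2 groups was therefore not tested.

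**Figure D2:**
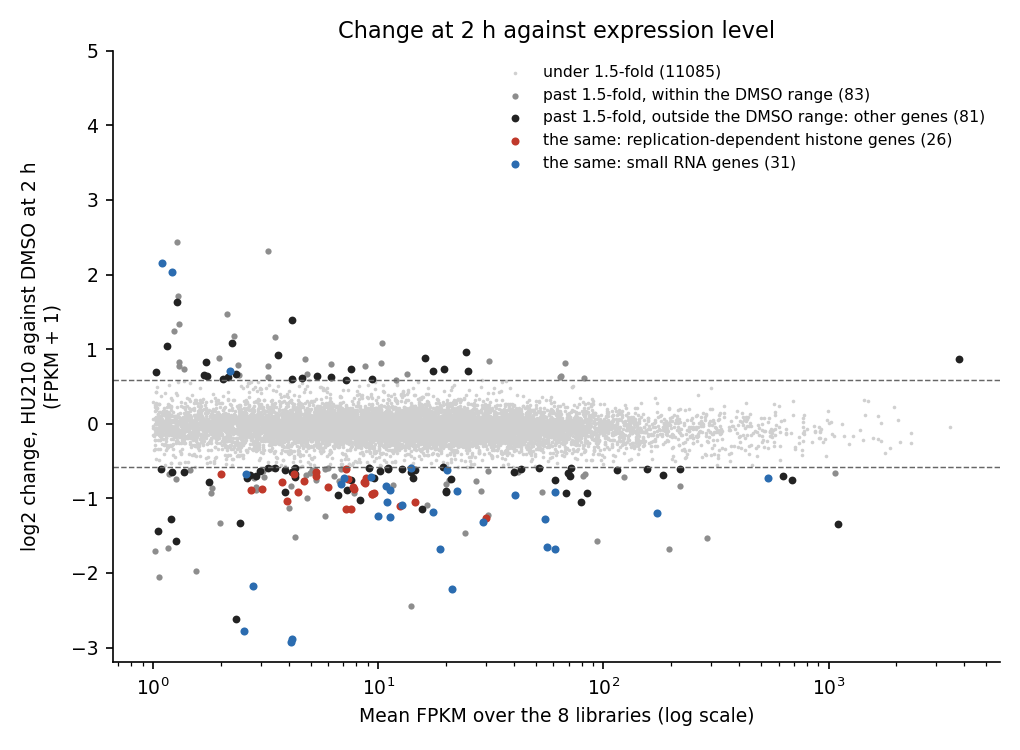
The log2 change with HU210 at 2 h on FPKM + 1 (vertical axis) against the mean FPKM over the 8 libraries on a log scale (horizontal axis), 1 point for each of the 11306 genes with a mean FPKM of at least 1. Dashed lines mark 1.5-fold, grey points past them lie within the range of the DMSO libraries, and the coloured points of histone and small RNA genes lie mostly on the lower side.

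The gene of the receptor itself was not past 1.5-fold. Cnr1, which codes for CB1R, had an FPKM of 15.5 with HU210 at 2 h, against 17.3, 27.0, 20.2 and 24.7 in the DMSO libraries of 2, 4, 6 and 8 h. Its value with HU210 was the lowest of the 5, by a log2 change of -0.16 from the DMSO library of 2 h. Set against the average of the 4 controls, the log2 change was -0.48.

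The immediate-early genes were the group in which several related genes were higher at 2 h. The list holds 31 transcription factors, corepressors and early-response genes, 30 of which have values. At 1.5-fold, 5 of the 30 were higher (0.655% of all genes) and none lower (1.33%), and all 5 were above the 4 DMSO libraries (0.397%). They are Egr1, Egr2, Egr3, Nab2 and Arc. At 1.3-fold, 9 of the 30 were higher (1.57% of all genes), all of them above the 4 DMSO libraries (0.919%), and 1 was lower (3.32%) and also below the 4 (1.98%). In all, 17 of the 30, or 56.7%, were above all 4 DMSO libraries, where 15.8% of the genes with a mean FPKM of at least 1 were, and 2 were below all 4, where 23.9% of those genes were. The median log2 change of the list was 0.15, beside -0.020 over all genes. The list was drawn up with earlier results of these data known and is no independent evidence of its direction.

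Egr1, the zinc finger factor that leads the family and sits on mouse chromosome 18 from 35020861 to 35024638 (mm9), had an FPKM of 36.8 with HU210. The DMSO libraries of 2, 4, 6 and 8 h had 18.3, 18.8, 27.0 and 18.9. The other controls lay close together and the library of 6 h stood above them, still below the HU210 value. The log2 change was 0.97, or 1.96-fold, and the HU210 value was 0.43 above the nearest DMSO library on the log2 scale. An antisense gene, Gm17507, overlaps Egr1, and without strand information its reads cannot be told apart from those of Egr1.

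Egr3 and Egr2 were also highest with HU210, at a far lower level of expression. Egr3, on chromosome 14 from 70477252 to 70479964, had 2.32 FPKM with HU210 and 0.607, 0.623, 1.56 and 0.723 FPKM in the 4 DMSO libraries in the order of time, a log2 change of 1.05. Egr2, a further family member known from hindbrain and Schwann cell development, had 1.80 FPKM with HU210 and 0.739, 0.623, 1.15 and 0.774 FPKM in the DMSO libraries, a log2 change of 0.69. In both genes the single HU210 value of 2 h was above all 4 DMSO libraries, and the DMSO library of 6 h was the nearest to it. At such a low FPKM the pseudocount of 1 shrinks the change, and with a pseudocount of 0.1 the log2 change was 1.78 for Egr3 and 1.18 for Egr2.

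Nab2, a corepressor that binds Egr factors and is itself induced by them, was higher along with the family. Its FPKM was 22.1 with HU210 and 11.6, 12.4, 17.3 and 12.1 in the 4 DMSO libraries, a log2 change of 0.88. The value with HU210 was above every control, and it remained at 24.0 FPKM in the HU210 library of 4 h, where Egr1 had 24.3 and Egr3 1.33 FPKM. Nab2 shares its locus with Stat6 and 2 further genes on the other strand. The second corepressor, Nab1, had 22.9 FPKM, within the DMSO range of 16.2 to 25.7.

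Arc, which codes for a synaptic protein whose mRNA follows neuronal activity, had an FPKM of 11.7 with HU210 against 7.40, 7.05, 10.6 and 8.10. Its log2 change was 0.60, just past 1.5-fold, and only 0.14 of it lay beyond the DMSO library of 6 h. Set against the averaged controls it was 0.47, under 1.5-fold. The AP-1 factor Junb had 30.1 FPKM against 21.1, 14.4, 23.2 and 18.7, a log2 change of 0.49. Fos, its partner in AP-1, was low, with 2.70 FPKM against 1.80, 1.42, 1.79 and 1.54, a log2 change of 0.40. Both lay above all controls but under 1.5-fold.

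The antiproliferative gene Btg2 had 4.07 FPKM with HU210 and between 2.68 and 3.72 FPKM in the DMSO libraries, a log2 change of 0.45. The stress-responsive gene Ier3 had 19.6 FPKM against 11.5 to 17.4, a log2 change of 0.40. In other members the difference was small or absent. Jun had 13.0 FPKM, within the range of 11.4 to 13.4, and Nr4a1, an orphan nuclear receptor, had 5.41 FPKM against 4.38 to 5.09. Myc was level at 70.5 FPKM, between 67.9 and 73.6 FPKM in the controls. One member went the other way: Atf3, a stress-induced factor of the ATF family, had 5.53 FPKM with HU210 and 8.41, 7.02, 7.18 and 9.70 FPKM in the DMSO libraries, a log2 change of -0.53, below every control.

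The ERK feedback genes code for phosphatases that remove phosphate from MAP kinases and for Sprouty and Spred inhibitors of the Ras-ERK path, and 17 of 18 have values. At 1.5-fold, 2 of the 17 were higher (0.655% of all genes) and none lower (1.33%), but neither of the 2 was above all DMSO libraries. Dusp6, the cytoplasmic phosphatase of ERK, had 74.7 FPKM with HU210 and 47.5, 51.5, 74.8 and 58.6 FPKM in the 4 DMSO libraries. Dusp4, a nuclear phosphatase, had 74.5 FPKM against 48.0, 58.5, 77.6 and 54.4. Their log2 changes of 0.64 and 0.62 were thus matched by the DMSO library of 6 h, which had no drug.

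Dusp2 and Dusp5, both nuclear phosphatases, were above all 4 controls though under 1.5-fold. Dusp2 had 4.68 FPKM against 2.86, 2.49, 2.73 and 1.54, a log2 change of 0.56. Dusp5 had 6.01 FPKM against 3.80, 4.86, 4.50 and 3.24, a log2 change of 0.55. Spry1, at 8.35 FPKM, was within the DMSO range of 6.19 to 9.54, and Dusp8, at 2.14 FPKM, was below all controls, which ran from 2.63 to 3.17 FPKM. The list had a median log2 change of 0.13 from DMSO at 2 h, and of 0.0097 when the 4 controls were averaged.

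Over both early lists, 11 genes were at least 1.3-fold higher and above all DMSO libraries. The highest DMSO library was that of 6 h for 8 of the 11, that of 2 h for 2 and that of 4 h for 1. The log2 change had the same sign as at 2 h for 10 of the 11 at 4 h, for 3 at 6 h and for all 11 at 8 h. Of the 4 HU210 libraries, that of 2 h was the highest for 9 of the 11, which were chosen for a high value in it. Over all 47 genes of both early lists, that of 2 h was the highest for 18 and that of 8 h also for 18. Each time point has its own DMSO library, and none of these differences between time points was tested.

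**Figure D3:**
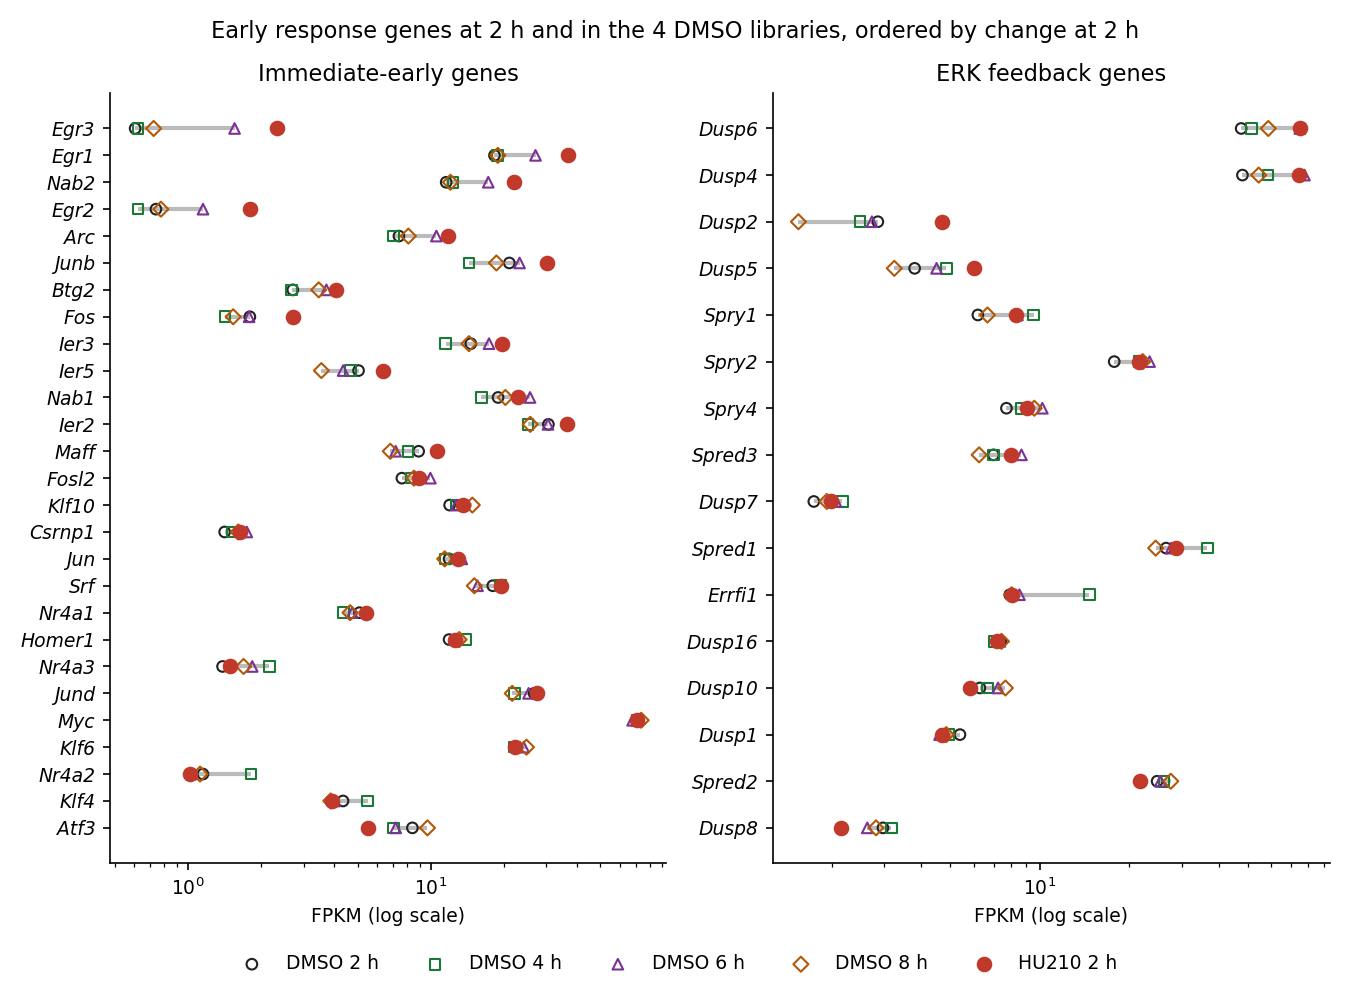
FPKM on a log scale (horizontal axis) of the immediate-early genes (left) and ERK feedback genes (right) with a mean FPKM of at least 1, ordered by the change at 2 h, in the HU210 library of 2 h (filled red) and the 4 DMSO libraries (open), with a grey bar over the DMSO range. Egr3, Egr1, Nab2 and Egr2 stand clear of the bar, Dusp6 and Dusp4 reach only its upper end at 74.8 and 77.6 FPKM, and Atf3 lies below it.

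The promoters of these genes were searched for sites of the factors that act on early genes, namely the CArG box of serum response factor, the cyclic AMP response element CRE (TGACGTCA) and the EGR site (GCGTGGGCG or GCGGGGGCG), on both strands and from 250 bases before to 50 after a start. RefSeq sequences of GRCm38.p6 were at hand for 8 of the 11 genes above. A CArG box was in 2 of the 8, Egr2 and Dusp5, and in 1.81% of all 27025 genes with a promoter sequence. A CRE was in 1 of the 8, Btg2, and in 2.03% of all genes, and an EGR site was in 1 of the 8, Dusp2, and in 3.93% of all genes. Of the 38 genes of both early lists with a promoter sequence, 3 had a CArG box, 5 a CRE and 9 an EGR site. The 3 with a CArG box were Egr2, Dusp5 and Srf, while most of those with a CRE or an EGR site were not among the 8. Egr1, Egr3 and Arc were without a promoter sequence, so the search cannot say whether a site is particular to the genes higher at 2 h. Such matches describe the letters of the window and do not show binding.

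The 250 bases before the start are shown for Egr2 (chr10:67537316-67537565, plus strand, 1 of 5 starts), Dusp5 (chr19:53528895-53529144, plus strand) and Btg2 (chr1:134079156-134079405, minus strand). They are the genes of the 8 in which a CArG box or CRE was found, and these sites are in capitals. In Egr2 the CArG box runs from 72 to 63 bases before the start. Dusp5 has 2 adjoining CArG boxes, from 82 to 73 and from 72 to 63 bases before the start, and the CRE of Btg2 lies 166 to 159 bases before it.
Egr2: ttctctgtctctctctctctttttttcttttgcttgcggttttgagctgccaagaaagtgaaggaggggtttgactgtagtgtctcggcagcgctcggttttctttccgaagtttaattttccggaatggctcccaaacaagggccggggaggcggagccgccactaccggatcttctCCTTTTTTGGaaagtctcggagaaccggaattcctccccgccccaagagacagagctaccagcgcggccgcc
Dusp5: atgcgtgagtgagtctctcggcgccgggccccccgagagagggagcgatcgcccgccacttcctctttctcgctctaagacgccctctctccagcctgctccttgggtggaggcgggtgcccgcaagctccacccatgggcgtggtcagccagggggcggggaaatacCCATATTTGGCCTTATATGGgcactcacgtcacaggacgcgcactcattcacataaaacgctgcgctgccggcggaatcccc
Btg2: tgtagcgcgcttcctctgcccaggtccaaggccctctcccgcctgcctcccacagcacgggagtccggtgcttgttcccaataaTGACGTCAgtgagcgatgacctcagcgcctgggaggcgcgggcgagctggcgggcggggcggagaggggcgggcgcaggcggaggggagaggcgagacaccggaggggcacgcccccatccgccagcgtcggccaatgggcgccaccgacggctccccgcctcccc

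Outside the early lists, the genes that stood farthest above the nearest DMSO library were mostly of low expression. The first 4 in rank were Tmem116, Doc2a, R74862 and 9430038I01Rik, and they were the only ones of the 25 that were 1.5-fold past every control. Doc2a, a calcium sensor of synaptic vesicle release, had 3.20 FPKM with HU210 and 1.66, 1.25, 1.31 and 0.933 FPKM in the DMSO libraries, a log2 change of 0.66. Tmem116 had 3.31 FPKM against 1.45 to 1.72, but its locus overlaps 5 genes on the other strand. One of them is Mapkapk5, and reads of the strands cannot be told apart here.

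Osbpl9 and Ralb, both at a higher level, followed in rank. Osbpl9, which codes for a lipid transfer protein of the oxysterol-binding family, had 35.1 FPKM with HU210 and 21.1, 21.8, 21.4 and 24.2 FPKM in the DMSO libraries, a log2 change of 0.70. The controls lay close together and HU210 was well above all of them. Ralb, on chromosome 1 from 121366882 to 121401371, had 23.9 FPKM against 14.3, 13.0, 16.6 and 17.1, a log2 change of 0.70, and remained at 21.7 FPKM in the HU210 library of 4 h. It codes for one of the Ral GTPases, which lie below Go in the CB1R pathway and act on the exocyst.

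Ralb was the only 1 of 36 genes of CB1R signalling and endocannabinoid metabolism past 1.5-fold in either direction. Its paralog Rala had 18.3 FPKM against 24.1 at 2 h, within the DMSO range of 16.5 to 24.5. Gnao1, the alpha subunit of Go, was level at 42.9 FPKM in both libraries of 2 h, and Stat3, the transcription factor at the end of the path, had 37.0 FPKM with HU210 and 35.4 with DMSO. Of the 36 genes, 13 had a positive and 23 a negative log2 change, with a median of -0.052. This was close to the background. Of the 11306 genes with a mean FPKM of at least 1, 4069 had a positive and 7232 a negative change, with a median of -0.051. Among 36 genes of cyclic AMP signalling, none passed 1.5-fold. The phosphodiesterase Pde4d, at 2.60 FPKM against 3.15 to 4.22, was the only one past 1.3-fold. In all, 15 of these 36 were below all 4 DMSO libraries and 3 above. Of the genes with a mean FPKM of at least 1, 23.9% were below all 4 and 15.8% above.

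The remaining genes of the 15 highest in rank include Sertad1, a partner of the cell-cycle factor E2F1, at 8.80 FPKM against 4.85 to 6.28, and the neural crest factor Sox8, at 10.1 FPKM against 5.70 to 8.17. Ndrg1, a gene induced by hypoxia and by growth arrest, had the largest log2 change of the 15, 1.39, with 7.68 FPKM against 2.30, 3.23, 6.10 and 2.25. Its DMSO library of 6 h came within 0.29 of the HU210 value on the log2 scale. None of the other 35 hypoxia-inducible genes on the list passed 1.3-fold. Vegfa had 70.4 FPKM with HU210 and 69.8 with DMSO at 2 h, and Slc2a1 had 21.2 FPKM against 19.3.

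Tm7sf2, a reductase of cholesterol synthesis, had 30.2 FPKM with HU210 and 17.7, 25.8, 20.2 and 14.3 FPKM in the DMSO libraries, a log2 change of 0.74. It was the only 1 of 31 sterol genes past 1.3-fold. However, 16 of the 31, or 51.6%, were above all 4 DMSO libraries by small amounts, and 2 were below all 4. Of the genes with a mean FPKM of at least 1, 15.8% were above all 4 and 23.9% below. The median log2 change of the list was 0.0091 against the DMSO library of 2 h and 0.12 against the mean of the 4. The DMSO library of 2 h itself stood 0.12 above that mean. Both libraries of 2 h were thus above the later controls in this list.

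**Figure D4:**
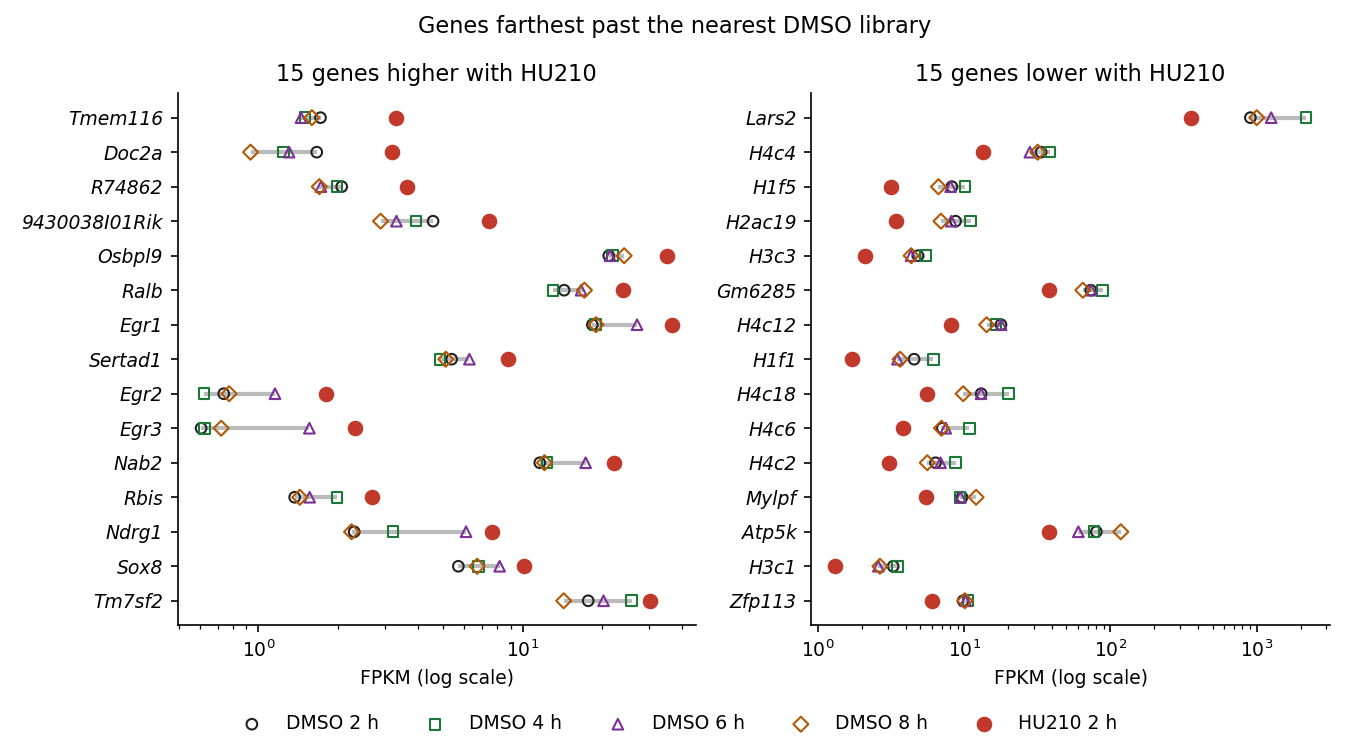
FPKM on a log scale (horizontal axis) of the 15 genes highest above (left) and the 15 lowest below (right) the nearest DMSO library, ranked by their log2 distance from it, with the HU210 library of 2 h in filled red, the 4 DMSO libraries as open symbols and a grey bar over the DMSO range. On the left Ndrg1 has a DMSO library of 6.10 FPKM close to its HU210 value of 7.68, and on the right 10 of the 15 genes code for histones.

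On the lower side the gene farthest below all controls was Lars2, the leucyl-tRNA synthetase of mitochondria, on chromosome 9 from 123276058 to 123371782. It had 355 FPKM with HU210 and 906, 2183, 1257 and 1002 FPKM in the DMSO libraries, a log2 change of -1.35. The controls varied widely among themselves, and HU210 was below all of them. The HU210 library of 4 h was also low, at 438 FPKM, while those of 6 h and 8 h had 1506 and 1193 FPKM.

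Histone genes made up most of the genes next in rank. Replication-dependent histone genes are active in S phase, and their mRNAs end in a stem-loop in place of a poly(A) tail. Of 48 such genes with values, 26 were 1.5-fold lower (1.33% of all genes) and all 26 were below the 4 DMSO libraries (0.78%), none was 1.5-fold higher, and the median log2 change was -0.66. The counts were 4 of 5 for H1 genes, 11 of 12 for H4, 3 of 6 for H3, 5 of 11 for H2B and 3 of 14 for H2A. The genes of a class are near copies of each other, so reads can be split among them by the counting and they are not independent of each other.

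H4c4, on chromosome 13 from 23673467 to 23673859, had 13.4 FPKM with HU210 and 33.6, 38.6, 28.1 and 31.8 FPKM in the DMSO libraries, a log2 change of -1.26. The linker histone gene H1f5 had 3.17 FPKM against 8.23, 10.1, 8.08 and 6.66, a log2 change of -1.15. In both, the HU210 value was less than that of any control. H2ac19, on chromosome 3, had 3.40 FPKM against 8.73, 11.1, 8.16 and 6.93, a log2 change of -1.15, and H3c3 had 2.09 FPKM against 4.33 to 5.41.

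The H2A genes split by locus. The 3 genes on chromosome 3, H2ac18, H2ac19 and H2ac20, had log2 changes between -0.88 and -1.15. Of the 11 on chromosome 13 none was below all DMSO libraries, and H2ac10 had 36.1 FPKM with HU210 against 33.6, 24.0, 20.1 and 22.4. With H2A genes left out, 32 of 34 genes were below all 4 DMSO libraries, as were 23.9% of the genes with a mean FPKM of at least 1, and the median log2 change was -0.74.

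Replication-independent histone genes, whose mRNAs generally carry a poly(A) tail, were nearer to the controls. None of 9 passed 1.3-fold, and none was below all 4 DMSO libraries. H3f3b had 509 FPKM with HU210, within the DMSO range of 439 to 686, and H2az1 had 75.3 FPKM against 36.8 to 76.3. Of the genes of DNA replication and the G1/S transition, none of 46 passed 1.5-fold, the median log2 change was -0.072 from the DMSO library of 2 h and 0.071 from the averaged controls, and none of 39 mitosis genes passed 1.3-fold. Orc1, a subunit of the origin recognition complex, came nearest with a log2 change of -0.51, within the DMSO range of 4.16 to 6.47 FPKM.

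The histone stem-loop, of 6 stem bases on each side of a 4-base loop, was searched for from 200 bases before to 100 after the annotated gene end in mm9. It was found in 34 of 46 replication-dependent histone genes annotated as protein-coding, in 0 of 9 replication-independent ones and in 1 of 13669 other protein-coding genes. A stem-loop outside this window would be missed. The stem-loops of 6 genes, with the 16 bases of stem and loop in capitals, are shown because they set this class apart from mRNAs with a poly(A) tail. Of the 6, H2ac10 is the 1 that was not lower with HU210.
H4c4: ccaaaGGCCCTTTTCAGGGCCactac
H1f5: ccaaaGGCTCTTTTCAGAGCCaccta
H2ac19: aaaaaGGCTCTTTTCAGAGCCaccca
H3c3: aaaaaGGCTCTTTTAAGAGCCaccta
H2bc3: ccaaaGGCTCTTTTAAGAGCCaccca
H2ac10: ccaaaGGCTCTTTTCAGAGCCaccac
They lie at chr13:23673814-23673839 (plus strand), chr13:21871701-21871726 (minus), chr3:96049950-96049975 (plus), chr13:23836911-23836936 (minus), chr13:23839067-23839092 (plus) and chr13:23626223-23626248 (plus). The stem-loop of H1f5, H2ac19 and H2ac10 is the same, and it is shared by 18 of the 34 genes.

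Many snoRNAs, which are not polyadenylated, were low in the same library. Of 113 snoRNA genes with a mean FPKM of at least 1, 50 were 1.5-fold lower in the HU210 library (1.33% of all genes) and 24 of them were below all 4 DMSO libraries (0.78%), while 8 were higher and none of those was above all 4. Without the limit on FPKM the picture was less one-sided, with 25 snoRNAs lower and below all 4 controls and 10 higher and above all 4, beside 2 snRNAs lower and 6 higher. The median log2 change of the 113 snoRNA genes was -0.43. On the scale of differences from the 4 averaged controls, the snoRNA median was -0.43 in the HU210 library of 2 h and -0.41 in the DMSO library of 8 h, so a control library was nearly as low. The replication-dependent histones had a median of -0.59 there with HU210 at 2 h, where the DMSO libraries ran from -0.20 to 0.18.

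Gm25776 and Gm23238 are shown as sequences because their mean FPKM was 21.2 and 55.0 and they were below all controls. The paper selected cDNA fragments by size, and both RNAs are shorter than the fragments kept. Whether their FPKM comes from these RNAs or from other transcripts was not tested. Gm25776, named SNORA79 in the annotation and lying within Gtf2a1, had 6.38 FPKM with HU210 and 33.2, 22.1, 31.4 and 19.6 FPKM in the DMSO libraries, a log2 change of -2.22. Gm23238, named U1 after the spliceosomal RNA, had 25.0 FPKM against 62.3, 75.5, 95.9 and 40.3, a log2 change of -1.28. Both were lower with HU210 than in every DMSO library.

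The sequences are those of mm9, at chr12:92811870-92812012 (minus strand) and chr19:18807231-18807394 (plus), with lengths of 143 and 164 bases. Capitals mark the ACA box, which lies 3 bases before the end in the snoRNA and is where its class takes its name, and in U1 the bases near the start that pair with the 5′ splice site.
Gm25776: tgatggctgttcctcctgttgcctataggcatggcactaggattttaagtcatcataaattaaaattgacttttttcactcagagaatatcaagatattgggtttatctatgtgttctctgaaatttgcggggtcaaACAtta
Gm23238: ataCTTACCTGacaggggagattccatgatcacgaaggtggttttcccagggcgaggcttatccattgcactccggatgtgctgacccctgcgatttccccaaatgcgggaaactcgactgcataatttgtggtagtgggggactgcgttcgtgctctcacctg

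A second gene named U1, Gm22042, had 14.4 FPKM against 37.2, 40.0, 46.6 and 24.0. Rmrp, the RNA of the RNase MRP complex, had 369 FPKM with HU210 and 609, 769, 597 and 579 FPKM in the DMSO libraries, a log2 change of -0.72, and it had 206 FPKM in the HU210 library of 4 h. Replication-dependent histone mRNAs, snoRNAs and U1 are RNAs without a poly(A) tail, and the libraries were made from mRNA bound to Dynabeads. The libraries were also selected for fragments longer than the snoRNAs and U1 genes named here. Whether these values follow the amount of RNA in the cells or the share that passed these steps was not tested. In the HU210 library of 4 h the medians on that scale were -0.43 for the replication-dependent histones and -0.88 for the snoRNAs, and in that of 6 h they were 0.16 and 0.34.

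**Figure D5:**
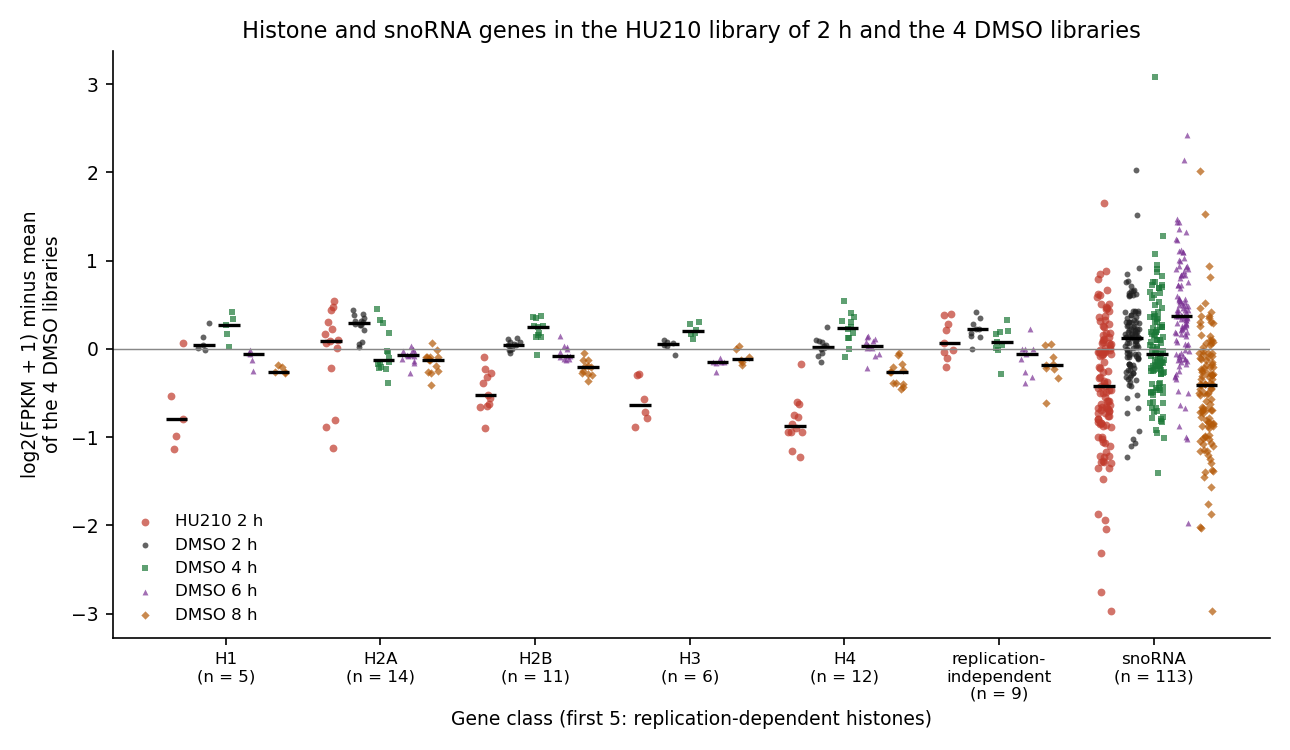
Difference of log2(FPKM + 1) from the mean of the 4 DMSO libraries (vertical axis) for histone genes by class and for snoRNAs with a mean FPKM of at least 1 (horizontal axis, n is the number of genes), in the HU210 library of 2 h (red) and the DMSO libraries of 2, 4, 6 and 8 h (black, green, purple and orange). Points are genes and short black lines are medians, which for HU210 are -0.79 for H1 and -0.88 for H4 and 0.066 for the replication-independent histones.

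The genes left out for low level or short length changed more on the log2 scale, but on little RNA. The 3 highest, Mir669a-3, Gm24867 and LOC115486563, had 2.66, 2.59 and 1.98 FPKM with HU210 and were listed at 0 in all 4 DMSO libraries, so no fold is given. The 3 lowest were snoRNA genes. Gm23105 and Gm24289 were listed at 0 with HU210 and had 2.35 to 8.67 and 2.06 to 6.58 FPKM in the DMSO libraries, and the third is Gm25776. A further 611 genes had values at 2 h but not at all time points, of which 10 were 1.5-fold higher and 8 lower at 2 h. Among them were Spdya, a cyclin-dependent kinase activator, with 3.74 FPKM against 0.324 in the DMSO library of 2 h, and Zfp26, with 13.6 FPKM against 4.66 at 2 h but 14.2 in the DMSO library of 4 h.

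Other genes far below all controls belonged to no 1 list. Atp5k, a small subunit of mitochondrial ATP synthase, had 38.0 FPKM with HU210 and 80.1, 77.0, 60.4 and 118 FPKM in the DMSO libraries, a log2 change of -1.05. Mylpf, a muscle myosin light chain, had 5.45 FPKM against 9.37 to 12.1, and the zinc finger gene Zfp113 had 6.00 FPKM against 9.83 to 10.6. The pseudogene Gm6285 had 38.2 FPKM against 64.8 to 88.6. Unlike Lars2 and the histones, Atp5k, Mylpf and Zfp113 were back at 89.3, 9.74 and 11.4 FPKM in the HU210 library of 4 h.

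Vhl, the ubiquitin ligase subunit that marks hypoxia-inducible factors for degradation, had 9.08 FPKM with HU210 and 14.7, 16.3, 12.7 and 14.6 FPKM in the DMSO libraries. Its log2 change was -0.64, and it was the only 1 of 11 genes of oxygen sensing past 1.5-fold. Eif2ak3, the ER stress kinase PERK, had 8.54 FPKM against 12.8 to 23.9, and none of 32 Atf4 targets passed 1.3-fold.

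Over the 81 lower genes, 34 were also 1.5-fold below their DMSO library at 4 h, 2 at 6 h and 1 at 8 h, and 61 had the same sign at 4 h, 23 at 6 h and 28 at 8 h. Over the 25 higher genes, 4 were 1.5-fold higher at 4 h, 1 at 6 h and 2 at 8 h, and 17, 12 and 21 had the same sign. These counts describe the genes chosen at 2 h, and the differences between time points were not tested.

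Few genes of neurite structure passed the cutoffs at 2 h. None of 41 growth cone, neurofilament and neurite genes passed 1.5-fold. Gap43, a membrane protein of growth cones, was the only one past 1.3-fold, with 36.6 FPKM against 38.0 to 51.5. In all, 14 of the 41 were below all 4 DMSO libraries and 3 above. Of the genes with a mean FPKM of at least 1, 23.9% were below all 4 and 15.8% above. Of 63 tubulins and microtubule-associated proteins, 1 was 1.5-fold higher (0.655% of all genes). This gene, Tppp, a protein that bundles microtubules, had 2.97 FPKM with HU210 and 0.279, 0.0962, 0.159 and 2.77 FPKM in the DMSO libraries, so that its log2 change of 1.63 was all but matched by the control of 8 h. The microtubule depolymerase Kif2a had 43.5 FPKM against 45.9 to 64.9, a log2 change of -0.50.

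Some genes past 1.5-fold from the DMSO library of 2 h were close to other controls. Of 62 centrosome genes, 2 were 1.5-fold lower (1.33% of all genes). Stil, which is needed to build centrioles, had 5.22 FPKM with HU210 and 8.55 with DMSO at 2 h, but 4.60, 4.64 and 4.37 FPKM in the later DMSO libraries, so the HU210 value lay between the DMSO library of 2 h and the later ones. Lztfl1, a regulator of BBSome traffic and the only 1 of 50 ciliary genes past 1.5-fold, had 3.75 FPKM against 1.99 at 2 h and 4.69 to 12.02 later. Its log2 change was 0.67 from the DMSO library of 2 h but -0.35 from the averaged controls. Cep85l had 0.917 FPKM with HU210 and 2.00, 2.32, 0.940 and 0.974 FPKM in the 4 DMSO libraries, below all of them but by little from those of 6 h and 8 h.

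Actb, cytoplasmic actin and a common reference gene, was the most abundant gene past 1.5-fold. It had 4827 FPKM with HU210 and 2656, 2464, 3332 and 4631 FPKM in the DMSO libraries, a log2 change of 0.86. Its HU210 value was the highest of the 5, but only 0.060 above the DMSO library of 8 h on the log2 scale. Rpl6, a ribosomal protein gene, went the other way with 464 FPKM against 627 to 802. Both were picked out after their values had been seen.

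The other lists had few or no members past the cutoffs. Among 27 heat shock proteins and chaperones, 2 were 1.3-fold lower (3.32% of all genes), and neither was below all controls. Hspd1, 1 of these, had 136 FPKM against 124 to 335. By smaller changes, 11 of the 27 were below all 4 DMSO libraries and 2 were above. Of the genes with a mean FPKM of at least 1, 23.9% were below all 4 and 15.8% above. Of 23 clock genes, Hlf, a PAR-domain factor, was 1.5-fold lower (1.33% of all genes), with 2.66 FPKM against 3.08 to 4.51. Of 21 p53 targets, Btg2 and Gdf15 were 1.3-fold higher (1.57% of all genes). None of 11 Id and Hes repressors was past that cutoff in either direction.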

How the data were processed

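RNA of starved N2A cells treated with HU210 or DMSO was bound to Dynabeads for poly(A) selection, and the mRNA of 2 to 3 independent experiments was pooled for each library. The authors aligned the reads to mm9 with TopHat 2.0.8 and bowtie 2.1.0, used samtools 0.1.7, and computed FPKM with Cufflinks and Cuffdiff (version not given in the sources used here), with multi-read, fragment-bias and upper-quartile corrections. The deposited values are FPKM + 1, and 1 was subtracted here for printed levels. Whether counting used strand is not stated. The deposited table also holds the authors' own fold changes, p-values and q-values, and a further file their called genes, none of which was used.

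Libraries were grouped by their labels. With 1 library per treatment and time, no test was run. A gene was called at 1.5-fold (1.3-fold for lists) on FPKM + 1, and the 4 DMSO libraries gave the spread among controls. Named genes are the 15 farthest above and the 15 farthest below the nearest DMSO library, among those past 1.5-fold with a mean FPKM of at least 1 and a transcript of at least 300 bases, with the 3 farthest on each side among the genes left out, and the list members past a cutoff. The comparison and lists were chosen with earlier results of these data known, and genes outside the rule were named after their values were seen. Read depth per gene is unknown from FPKM, so no counting error is given. Alternatives were another pseudocount, cutoff, filter and reference, centring, a trend on GC content and length removed by loess, and leaving out each later DMSO library. Positions are those of the mm9 annotation and promoters are RefSeq's for GRCm38.p6. Python 3.11.15, numpy 2.4.6, pandas 2.3.3, scipy 1.17.1, matplotlib 3.10.9 and R 4.3.3 were used, and the calling step was tested on simulated data. A few items are not reported here.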

Additional observations from a re-analysis of the deposited data

Results flagged for a closer look

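For some named genes 1 of the 4 DMSO libraries stood far from the other 3, by a gap that took up most of their range. Among groups of 4 replicates chance alone would flag about 1 in 20 in this way. The 4 DMSO libraries differ in time and are not replicates, so that rate need not hold for them. The gap as a share of the range was 0.919 for Egr1, 0.850 for Egr3 and 0.842 for Nab2, in each of which the DMSO library of 6 h was high. It was 0.994 for Ralgds, 0.888 for Src and 0.890 for Stat3, of the Ral, Src and Stat3 path. It was 0.917 for Stil, 0.875 for Tppp, 0.849 for H4c6, 0.882 for Mylpf and 0.839 for Eif2ak3.

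Some genes called at 2 h were past 1.5-fold in the opposite direction at another time, each against the DMSO library of that time, and the difference was not tested. Egr3 had a log2 change of -0.62 at 6 h, and Tm7sf2 one of -0.68 at 4 h. The snoRNA gene Gm23105, listed at 0 with HU210 at 2 h, had 0.85 at 8 h, and Gm24289 had 0.77 at 6 h and 0.81 at 8 h. Ndufb3, a subunit of respiratory complex I, had 1.10 at 4 h.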

How the results depend on the processing

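No paired analysis was possible because the 2 h comparison alone has 1 library of each treatment; the time-matched pairs of 4, 6 and 8 h belong to other comparisons and were not fitted together with it. The counts at 1.5-fold were 104 higher and 212 lower genes, and 63 and 124 of these lay outside all 4 DMSO libraries. With a pseudocount of 0.1 they were 335, 534, 171 and 282, and at 1.3-fold 250, 528, 146 and 315. Among genes averaging 1 FPKM or more the higher counts were 57 and 28, and with transcripts of at least 300 bases 61 and 39, with 124 lower genes. Without the trend on GC content and length, which covers coding genes only, the counts were 63, 71, 40 and 52. Without small RNA and replication-dependent histone genes, an alternative chosen after seeing the data, they were 62, 103, 39 and 69. Centring on the median and the mean of the DMSO libraries as reference left all 4 counts within 1.5 times of those above. Leaving out 1 of the later DMSO libraries gave 71 to 77 higher and 135 to 146 lower genes outside the rest. Of 59 genes named past 1.5-fold, 9 were no longer past it against the mean of the DMSO libraries (Arc, Dusp4, Dusp6, Hlf, Stil, Cep85l, Lztfl1, Rbis and Sox8) and 5 after centring (Hlf, Stil, Zfp113, Rab11a and Eif2ak3). Without the trend it was 10 of 46 (Arc, Vhl, Hlf, Stil, Cep85l, H4c6, Zfp113, Rab11a, Eif2ak3 and Ndufb3), and the cause was not tested. Against the mean of the DMSO libraries Lztfl1 turned from 0.67 to -0.35 on the log2 scale, and it was the only one of the 59 to change sign under these settings. Among genes and list medians under 1.5-fold several changed sign, among them the medians of G1/S genes (-0.072 to 0.071) and mitosis genes (-0.050 to 0.10) against that mean. The missing replicates and unknown depth limit every value.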
